A study of Homo sapiens with 12 samples.

Results

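7SK is a small nuclear RNA that RNA polymerase III makes from 1 gene, RN7SK, and the human genome holds many further stretches that resemble it. The RNA is the scaffold of a particle in which the proteins HEXIM1 and HEXIM2 hold P-TEFb, the kinase that releases paused RNA polymerase II, in an inactive state. LARP7 binds the U-rich end of the RNA and MEPCE caps its start. The stretches elsewhere in the genome are mostly truncated retrocopies, and near-identical copies compete with the gene for the same sequencing reads.

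The elements described here are those that the repeat annotation assigns to the subfamily 7SK, on either read strand. They were 302 of the 2321299 elements listed in at least 1 library, and they filled 384 of 3015442 rows, since each element has a row for each read strand. Of these rows, 211 were read on the strand of the element (sense) and 173 on the other (antisense). The rule itself uses no measured value. Every member is counted below, but only 12 to 14 of the 384 rows per comparison had enough counts to be tested one by one.

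PAR-CLIP was used to sequence RNA crosslinked to V5-tagged proteins in A375 cells, an established human melanoma line. The cells were transiently transfected, and a photoactivatable nucleoside was added 24 h later. Clover, a fluorescent protein with the same tag, was the control. Z18fl was full-length ZC3H18 and Z18trunc a truncated form of it, and in Z18truncZnFmut aromatic residues of the zinc finger, not all of them, were mutated in the truncated form. ZC3H18 links cap-bound RNA to the nuclear exosome, and nothing in the sources used here says that the cells' own ZC3H18 was removed from any group. Each construct had 3 libraries, 12 in all, and p-values measure the spread between these libraries, which may be technical. No input library was analysed here, so the amount of an RNA in the cells and its recovery with the tagged protein cannot be told apart, and in bulk samples fewer cells that carry an RNA and less of it per cell cannot be told apart either.

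The libraries held 16683132 to 25686948 aligned fragments, and the 3 Clover libraries were the shallowest, with at most 17673644. One library stood apart. Z18truncZnFmut replicate 3 listed 1414822 elements of all kinds, against 283091 to 697167 in the other 11, and 184 7SK elements, against 39 to 85. It alone listed 124 of the 222 rows seen in 1 library only. Without it, 213 7SK elements were listed, and results that it moves are given with and without it below.

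RN7SK was the element with the most reads. It lies on hg38 at chr6:52995620-52995951 on the plus strand, 332 bases long, and these ends are those of the annotated RN7SK gene (ENSG00000283293.1), which lies between other genes. Its first 300 bases are shown because they hold the start of the RNA, where the copies also begin, with the 3 GATC tetramers in capitals. GATC reads the same on both strands, and the GAUC that it encodes is part of the hairpin that HEXIM1 recognizes. It starts at bases 13, 42 and 64 of the gene and occurred in 212 of the 302 elements, or 70.2%.
RN7SK: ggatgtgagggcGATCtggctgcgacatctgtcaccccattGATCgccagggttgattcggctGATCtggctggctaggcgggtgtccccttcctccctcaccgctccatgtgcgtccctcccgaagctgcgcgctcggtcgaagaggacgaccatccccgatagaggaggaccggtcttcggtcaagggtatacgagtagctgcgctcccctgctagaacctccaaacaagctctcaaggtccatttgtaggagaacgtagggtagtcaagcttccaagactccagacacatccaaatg
The 32 bases not shown hold 12 T, from which the U-rich end is transcribed.

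The next 5 elements by counts are printed beside the gene because they are so similar to it that few of their reads map to 1 place alone. Unique reads were 1.12% of their total counts. Capitals mark the bases that differ from the gene or that lie past the aligned part. A base of the gene that a copy lacks, as in RN7SKP80, carries no mark but lowers the identity given below.
RN7SKP203: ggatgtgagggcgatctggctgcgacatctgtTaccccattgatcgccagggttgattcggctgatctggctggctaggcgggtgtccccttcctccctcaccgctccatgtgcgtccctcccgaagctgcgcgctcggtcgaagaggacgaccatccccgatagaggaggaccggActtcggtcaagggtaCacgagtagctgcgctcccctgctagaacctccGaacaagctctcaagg
RN7SKP71: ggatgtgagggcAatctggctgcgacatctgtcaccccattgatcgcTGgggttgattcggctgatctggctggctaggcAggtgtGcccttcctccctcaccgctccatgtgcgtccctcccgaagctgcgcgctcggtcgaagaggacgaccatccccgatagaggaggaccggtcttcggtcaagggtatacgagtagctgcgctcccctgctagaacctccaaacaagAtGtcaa
RN7SKP255: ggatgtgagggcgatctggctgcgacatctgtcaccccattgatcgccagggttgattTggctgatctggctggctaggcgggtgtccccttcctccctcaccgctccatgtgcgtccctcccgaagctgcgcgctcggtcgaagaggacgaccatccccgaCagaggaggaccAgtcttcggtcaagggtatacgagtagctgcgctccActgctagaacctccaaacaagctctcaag
RN7SKP9: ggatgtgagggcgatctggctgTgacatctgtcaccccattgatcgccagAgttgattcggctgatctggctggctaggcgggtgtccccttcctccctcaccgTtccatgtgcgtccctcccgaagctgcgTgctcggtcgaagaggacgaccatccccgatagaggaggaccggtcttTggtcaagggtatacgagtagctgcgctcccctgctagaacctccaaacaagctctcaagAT
RN7SKP80: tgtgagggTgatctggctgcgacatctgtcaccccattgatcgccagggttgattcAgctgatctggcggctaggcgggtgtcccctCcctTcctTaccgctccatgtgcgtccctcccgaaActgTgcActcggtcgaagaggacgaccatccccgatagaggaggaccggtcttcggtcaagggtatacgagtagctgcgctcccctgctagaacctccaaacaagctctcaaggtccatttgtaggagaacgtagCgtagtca
RN7SKP203 lies between genes at chr2:76445170-76445410 on the minus strand and was 98.3% identical to RN7SK over its 241 aligned bases. RN7SKP71, at chr12:112267077-112267315 on the plus strand, lies opposite HECTD4 and was 97.1% identical. RN7SKP255, at chr14:89712511-89712750 on the plus strand, lies opposite the long noncoding RNA gene ENSG00000259053 and was 98.3% identical. RN7SKP9, at chr13:99205708-99205949 on the plus strand, lies in an intron of UBAC2 and was 97.9% identical. RN7SKP80, at chr22:42565062-42565327 on the minus strand, lies in an intron of RRP7BP and was 96.2% identical. All 5 begin within the first 4 bases of the gene, and none reaches its end.

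RN7SK recovery was highest with Z18truncZnFmut, and all 9 ZC3H18 libraries exceeded all 3 Clover libraries. Levels here are CPM, total counts on the strand of the gene per 1000000 aligned fragments, where the total adds an estimated share of reads that map to several places. The Clover libraries had 5039, 4805 and 4008, a mean of 4617 ± 540 (SD, n = 3). The Z18fl libraries were at 7971, 7179 and 7785, a mean of 7645 ± 414 (SD, n = 3). Those of Z18trunc were at 6628, 6600 and 7440, a mean of 6890 ± 477 (SD, n = 3). The Z18fl and Z18trunc ranges overlapped, and both lay below every Z18truncZnFmut library. The Z18truncZnFmut libraries had 8500, 12206 and 10578, a mean of 10428 ± 1858 (SD, n = 3), so this group also had the widest spread. These values rest on 70844 to 259808 total counts per library, so counting error is small beside the spread between libraries.

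Against Clover, the mean log2 level was higher by 0.73 ± 0.11 (SE) with Z18fl, by 0.58 ± 0.12 with Z18trunc and by 1.17 ± 0.18 with Z18truncZnFmut, or 1.66-fold with Z18fl and 2.24-fold with Z18truncZnFmut. Each of these 3 comparisons gave a two-sided exact permutation p of 0.1, the smallest that 3 against 3 libraries allow, and 0.2 after Benjamini-Hochberg adjustment over the 50 tests of this kind. Z18truncZnFmut exceeded Z18trunc by 0.58 ± 0.16 (exact permutation p = 0.1, adjusted 0.2), and Z18trunc differed from Z18fl by -0.15 ± 0.07 (exact permutation p = 0.2, adjusted 0.286). The scale matters for Z18truncZnFmut. Per count in all repeat elements in place of all aligned fragments, its difference from Clover was 0.42 (exact permutation p = 0.3) and from Z18trunc 0.24 (p = 0.4, exact), while those of Z18fl and Z18trunc from Clover were 0.44 and 0.18 with groups that still did not overlap, and Z18trunc against Z18fl was -0.26. Z18truncZnFmut replicate 3 had 4830360 counts in repeat elements, against 1410042 to 2845631 in the other 11 libraries, and 256178 RN7SK counts. Replicates 1 and 2 of that construct had 2585457 and 2845631 counts in repeat elements and 205454 and 259808 RN7SK counts. This scale was not run without replicate 3, so the lower values cannot be assigned to the construct as a whole.

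**Figure D1:**
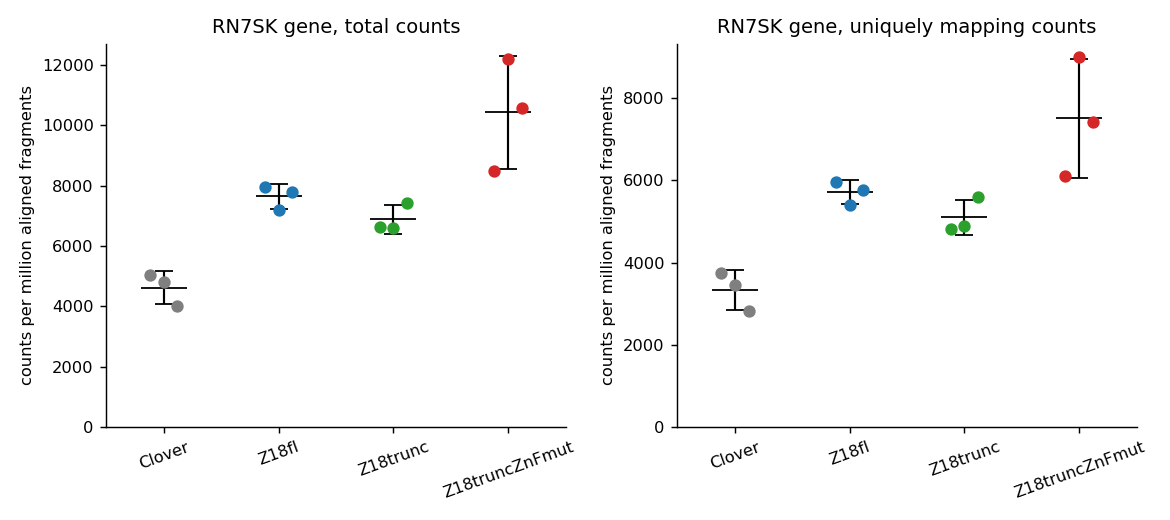
RN7SK CPM (counts per 1000000 aligned fragments, vertical axes, from 0) in the 3 libraries of each construct, as total counts on the left and uniquely mapping counts on the right. Points are libraries and bars are the mean ± SD; the 3 Clover libraries, at 4008 to 5039 total, lie below all others.

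Reads that map to 1 place alone gave the same order. Unique counts were 73.3% of the RN7SK total over the 12 libraries, and between 70.1% and 75.3% in each. Unique CPM values were 2811 to 3755 in Clover, 5407 to 5973 in Z18fl, 4814 to 5598 in Z18trunc and 6110 to 9011 in Z18truncZnFmut. The log2 differences from Clover were 0.79 ± 0.13 (SE), 0.62 ± 0.14 and 1.16 ± 0.20, each with non-overlapping groups. These reads do not depend on how shared reads were divided.

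The fit across all repeat elements scales libraries to one another by TMM, which sets the typical element to no change. In it the RN7SK gene rose against Clover with each construct. The log2 fold change was 0.52 ± 0.08 (SE) with Z18fl (edgeR quasi-likelihood test, adjusted p = 0.000167), 0.35 ± 0.11 with Z18trunc (edgeR adjusted p = 0.0187) and 1.10 ± 0.24 with Z18truncZnFmut (edgeR adjusted p = 0.00497). Less the median of all elements tested, RN7SK stood at 0.50, 0.40 and 1.12. With library sizes taken from aligned fragments the median itself moved to 0.23, 0.18 and 0.07, and RN7SK less that median was 0.50, 0.40 and 1.11. The Z18trunc call is the least secure: without Clover replicate 3 the value was 0.20 (edgeR adjusted p = 0.164), and with all 12 libraries in 1 fit it was 0.27 (edgeR adjusted p = 0.143). With no filter on low counts, all 3 calls were lost (0.76, 0.60 and 1.27, edgeR adjusted p = 0.553, 0.535 and 0.452).

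Between constructs, RN7SK passed no threshold in that fit. Z18trunc against Z18fl gave -0.20 ± 0.08 (SE, edgeR adjusted p = 0.143), and without Z18trunc replicate 3 it was called at -0.28 (edgeR adjusted p = 0.00400). Z18truncZnFmut against Z18trunc gave 0.75 ± 0.23 (edgeR adjusted p = 0.177), and this value was called by DESeq2 (0.77, adjusted p = 0.00142), by edgeR on unique reads (0.81, adjusted p = 0.0466) and without Z18truncZnFmut replicate 1 (0.97, edgeR adjusted p = 0.0165).

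The other copies carried few reads of their own. The gene held 94.2% of all 7SK sense counts and 99.9% of the uniquely mapping ones. The next 5 copies held 5.71% of the sense counts, 121181 in all, of which 1362 were unique. The remaining 205 sense rows summed to 1740 counts, of which 826, or 47.5%, were unique. Across the 384 rows on both strands, 53 reached 10 counts over the 12 libraries together and 14 reached 100.

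RN7SKP203, the highest copy, had 125, 151 and 134 total CPM in the Clover libraries and 212, 180 and 200 in those of Z18fl. Z18trunc had 192, 176 and 197, and Z18truncZnFmut had 263, 334 and 380. Its 1212 unique reads were 2.11% of its total. On those reads alone it ran from 2.34 to 3.86 CPM in Clover and from 5.13 to 6.90 in Z18truncZnFmut, again without overlap. Its unique means were 3.07, 4.52, 4.07 and 6.28 CPM in Clover, Z18fl, Z18trunc and Z18truncZnFmut, beside 3338, 5719, 5098 and 7515 for the gene. At a base where the gene has T the copy has C, the change that the paper used to find crosslinked sites. Whether such reads of the gene were placed at this copy was not tested. RN7SKP71 followed with a mean of 70.4 ± 7.21 (SD, n = 3) CPM in Clover and 161 ± 17.7 (SD, n = 3) in Z18truncZnFmut, but it had 54 unique reads in all 12 libraries. RN7SKP255, RN7SKP9 and RN7SKP80 had 36, 13 and 47 unique reads against totals of 18681, 10858 and 5648, so their levels rest almost wholly on the estimated division of shared reads.

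The 5 copies ran alongside the gene. They summed to between 5.33 and 7.08 counts per 100 RN7SK counts in the 12 libraries, and RN7SKP203 took 44.6% to 50.7% of their sum. The widest relative swing was in RN7SKP80, from 2.90% to 6.08%, and RN7SKP255 ran from 12.6% to 20.3%. Since they share reads with RN7SK, a call in one of them is not independent of the call in the gene.

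**Figure D2:**
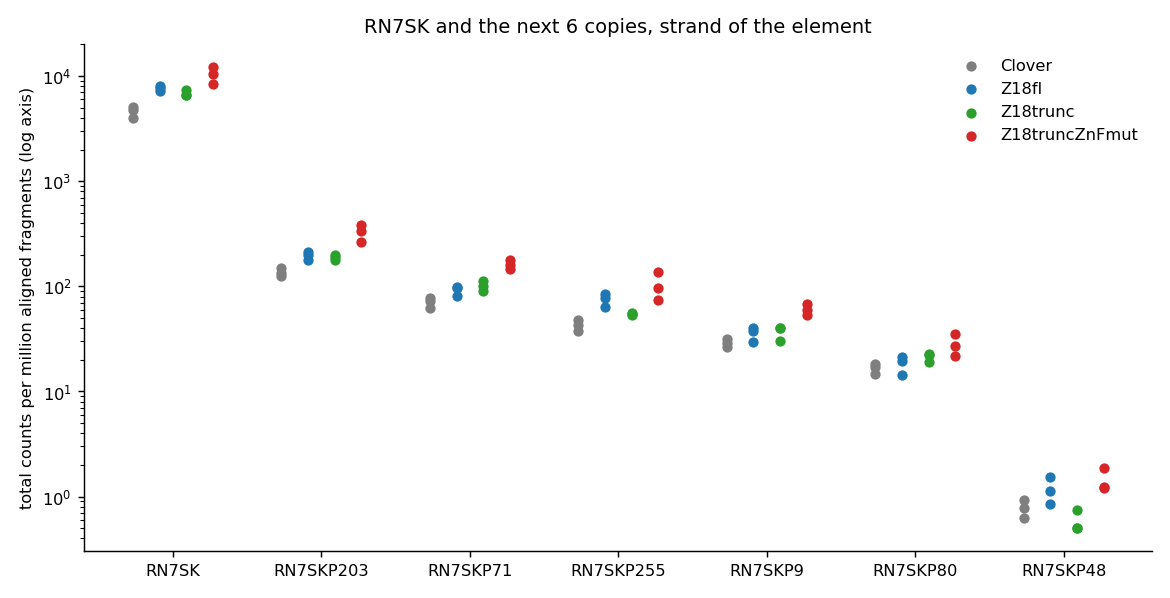
Total CPM (log axis) of RN7SK and the 6 next copies on the strand of the element, 1 point per library, coloured by construct. The gene lies at 4008 to 12206, RN7SKP203 at 125 to 380 and RN7SKP48 at 0.504 to 1.88.

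In the fit across all elements, 4 of the 12 tested 7SK rows were called for Z18fl against Clover. The 2 that rose were RN7SK and RN7SKP255 (0.61 ± 0.16 SE, edgeR adjusted p = 0.00613), where 25.5% of all elements tested were called higher. The 2 that fell were the antisense rows of the same elements, where 20.9% of all were called lower. For Z18trunc against Clover, 1 of 12 rows was called higher, RN7SK itself, beside 18.9% of all elements, and edgeR called 0 lower, beside 9.79%. At an unadjusted p under 0.05, 1 was lower, beside 3018 of all 18359 elements, and DESeq2 called 0 lower, beside 1017. These shares are near or below the background.

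For Z18truncZnFmut against Clover, 5 of 13 tested 7SK rows were called higher and 8.18% of all elements were. They were RN7SK, RN7SKP203 (1.17 ± 0.24 SE, edgeR adjusted p = 0.00331), RN7SKP71 (1.11 ± 0.22), RN7SKP255 (1.18 ± 0.26) and RN7SKP9 (0.97 ± 0.21), the gene and 4 copies that share its reads. With unique reads only, the calls were RN7SK and RN7SKP203 (1.05). No row was called lower by edgeR, beside 1.78% of all elements. At an unadjusted p under 0.05 there were 2 lower, beside 1458 of all 16106 elements. DESeq2 called 1 lower, the antisense row of RN7SK, beside 257 of all. The median log2 fold change of the 13 rows was 0.79, against -0.03 over all 16106 elements. The 13 rows include the gene and copies that share its reads, so this median does not describe 13 separate members.

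For Z18trunc against Z18fl, 0 of 14 rows were called higher (0 also at an unadjusted p under 0.05 and by DESeq2), beside 1.68% of all, and 1 lower, beside 2.28%. That row was RN7SKP255 (-0.53 ± 0.14 SE, edgeR adjusted p = 0.0490), and leaving out any one of the 6 libraries ended the call, with adjusted values of 0.0527 to 0.171. For Z18truncZnFmut against Z18trunc, edgeR called 0 of 13 in either direction, beside 0.133% of all elements higher and 0.1% lower. At an unadjusted p under 0.05 there were 7 rows, all higher, beside 1532 of all 24884 elements. DESeq2 called 5, all higher, beside 80 of all. The median of the 13 was 0.70, against 0.02 over all elements, with the same limit that the gene and its near-identical copies share reads.

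Copies that differ more from the gene had reads that could be placed. RN7SKP16, in an intron of PHC2 at chr1:33336625-33336864 on the minus strand, was 88.5% identical to RN7SK, and 107 of its 123 counts were unique. It was listed at 6 to 10 counts in the Clover libraries and at 6 to 14 in the 9 ZC3H18 libraries, so its groups overlapped. RN7SKP175 lies in an exon of the long noncoding RNA gene ENSG00000287576 at chr8:143542110-143542398 on the plus strand. It was listed at 1 to 3 counts in Clover, 13 to 23 in Z18fl, 10 to 16 in Z18trunc and fewer than 10 in Z18truncZnFmut, and 100 of its 117 counts were unique. Every ZC3H18 library exceeded every Clover library at this copy. The filter on low counts kept it out of the fits against Clover. With no filter it was called for Z18fl (log2 fold change 2.56 ± 0.63 SE, edgeR adjusted p = 0.0122), with no share of all elements called to set beside it. With all 12 libraries in 1 fit the values were 2.26 for Z18fl and 1.83 for Z18trunc. In that fit it passed the filter only through the libraries where it is high, so calls there are not support. All these values rest on 1 to 3 counts per Clover library. RN7SKP72, in an intron of LINC00470 on chromosome 18 at 1323846 to 1324085, was at 0 in 3 libraries, where 0 allows up to 3 counts, and reached 10. An unnamed element in an intron of OSER1-DT at chr20:44211706-44211825 had 40 unique of 53 counts. RN7SKP48 between genes at chr4:85100496-85100823, almost the full length of the gene and 90.5% identical, had 264 counts and 0 unique ones.

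The highest counts lay in the elements most similar to the gene. The other 301 elements were 64.8% to 100% identical to RN7SK over their aligned bases, with a median of 80.8%. The aligned part covered 3.01% to 100% of the gene, with a median of 52.1%, so an identity can rest on a short stretch. Of these, 152 start within the first 3 bases of the gene and 9 reach its last 5 bases. There were 8 elements at least 95% identical over at least 50% of the gene, and the 5 copies printed above are among them. Over the 210 other sense rows, Spearman's rho of identity and mean level was 0.308, a description of rows that share libraries and reads with the gene.

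**Figure D3:**
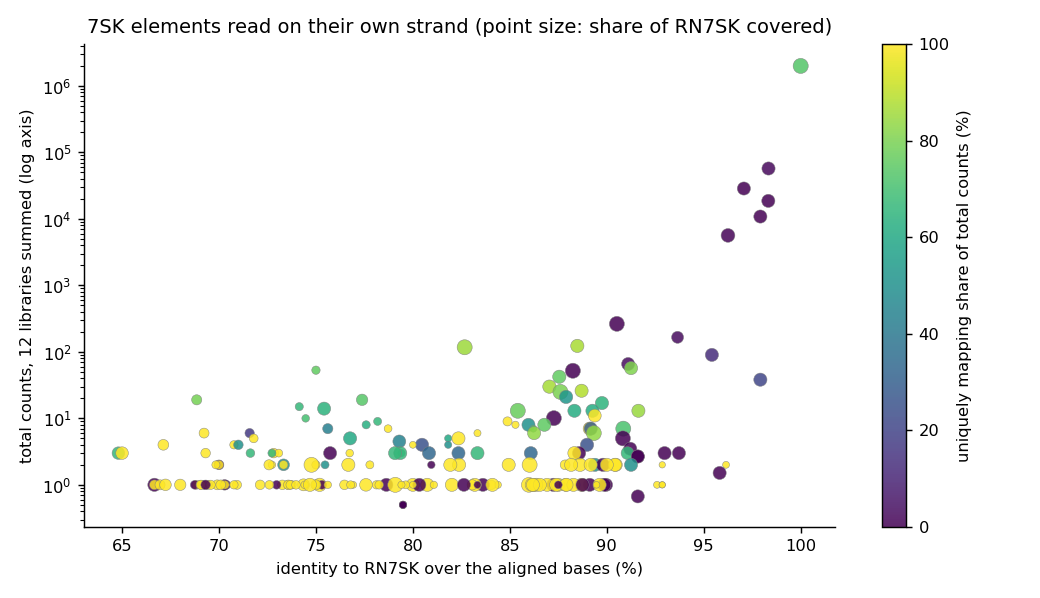
Total counts summed over the 12 libraries (log axis) against identity to RN7SK (percent) for 7SK elements read on their own strand. Each point is an element, its size is the share of RN7SK covered and its colour the unique share of its counts; the gene, with 2001224 counts, and the 5 near-identical copies stand above all others.

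Copies in introns were counted apart, on unique reads and on the strand of the host gene, because an intron copy can be read as part of its host's transcript. The 166 such rows had 1.30 to 2.76 unique CPM in Clover, 2.89 to 4.05 in Z18fl, 2.75 to 3.74 in Z18trunc and 2.40 to 4.91 in Z18truncZnFmut. Z18fl alone did not overlap Clover (log2 difference 0.86 ± 0.35 SE, exact permutation p = 0.1, adjusted 0.2). The 216 other rows outside such introns had 3.72 to 5.50 in Clover, 6.15 to 7.26 in Z18fl, 5.85 to 6.84 in Z18trunc and 7.24 to 12.9 in Z18truncZnFmut. All 3 constructs lay above Clover there, by 0.55 ± 0.18, 0.46 ± 0.18 and 1.02 ± 0.30, each with an exact permutation p of 0.1. Most of these reads were those of RN7SKP203, which ran alongside the gene. It held 3.07 of a mean of 4.71 CPM in Clover and 4.52 of 6.83 in Z18fl. In Z18trunc it held 4.07 of 6.39 and in Z18truncZnFmut 6.28 of 9.68. The differences therefore do not describe the 216 rows alike. Libraries held 23 to 119 unique counts in the intron rows and 62 to 313 in the others, the highest of both in Z18truncZnFmut replicate 3. Without that library the Z18truncZnFmut means were 3.03 and 8.06 CPM, against 3.66 and 9.68 with it.

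Antisense CPM at the RN7SK locus was lower than in Clover with Z18fl and Z18truncZnFmut, while the sense level was higher with every ZC3H18 construct. The Clover libraries had 139, 151 and 133 CPM, and those of Z18fl 109, 109 and 103. Z18trunc had 103, 143 and 151, and Z18truncZnFmut had 110, 114 and 95.3. Z18fl and Z18truncZnFmut did not overlap Clover and Z18trunc did, and each library rests on 2309 to 3566 antisense counts. Per 100 sense counts, antisense counts were 2.75 to 3.32 in Clover, 1.32 to 1.52 in Z18fl, 1.56 to 2.17 in Z18trunc and 0.901 to 1.29 in Z18truncZnFmut, with no ZC3H18 library reaching Clover. RN7SK held 92.2% of all 7SK antisense counts, and 91.8% of its antisense counts were unique.

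**Figure D4:**
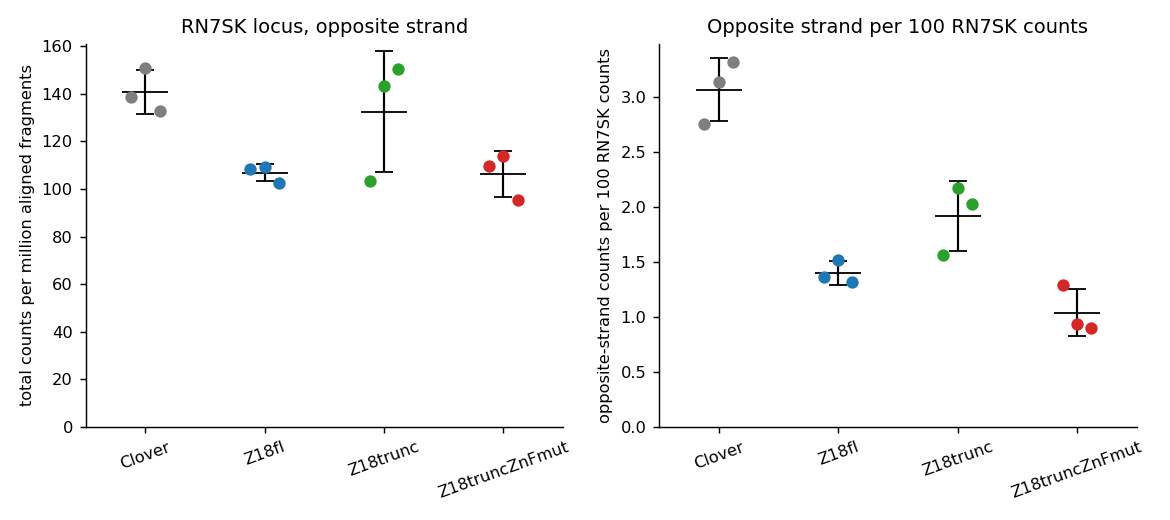
Antisense total CPM at RN7SK (left) and per 100 sense counts (right), both from 0, with points as libraries and bars as the mean ± SD of 3. The level is 133 to 151 in Clover and 95.3 to 151 elsewhere, and the ratio is 2.75 to 3.32 in Clover and 0.901 to 2.17 elsewhere.

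In the fit across all elements, the RN7SK antisense row fell by 0.61 ± 0.13 (SE, log2) with Z18fl against Clover (edgeR adjusted p = 0.00162). With Z18trunc it was -0.31 ± 0.16 (edgeR adjusted p = 0.156) and with Z18truncZnFmut -0.50 ± 0.21 (edgeR adjusted p = 0.152), the latter called by DESeq2 (adjusted p = 0.00429). The RN7SKP255 antisense row fell by 0.60 ± 0.18 with Z18fl (edgeR adjusted p = 0.0116) but had 0 unique reads of 1329, and without Z18fl replicate 2 or 3 its adjusted p was 0.110 or 0.130. RN7SKP203 had 354 antisense counts, 8 of them unique. Antisense reads at 7SLRNA, the scaffold RNA of the signal recognition particle, ran alongside, at 157 to 167 CPM in Clover and 120 to 162 elsewhere. What the antisense reads come from was not tested.

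Summed over the subfamily, 7SK sense counts rose with Z18fl by 0.29 ± 0.05 (SE, log2, edgeR adjusted p = 0.000846). The value was 0.13 ± 0.08 with Z18trunc (edgeR adjusted p = 0.328) and 0.50 ± 0.44 with Z18truncZnFmut (edgeR adjusted p = 0.605). Without Z18truncZnFmut replicate 3 the last became 0.85 (edgeR adjusted p = 5.24e-07), so that library decides the call. Between constructs the values were -0.20 ± 0.07 (Z18trunc against Z18fl, edgeR adjusted p = 0.183) and 0.39 ± 0.39 (Z18truncZnFmut against Z18trunc, edgeR adjusted p = 0.921). 7SK antisense counts fell with Z18fl by 0.82 ± 0.08 (edgeR adjusted p = 3.73e-06) and with Z18trunc by 0.52 ± 0.10 (edgeR adjusted p = 0.00247), and were -0.99 ± 0.39 with Z18truncZnFmut (edgeR adjusted p = 0.318). Without Z18truncZnFmut replicate 3 that value was -0.60 and was called (edgeR adjusted p = 7.18e-05).

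Small structured RNAs moved in both directions beside 7SK. Of 19 listed subfamilies 16 were tested for Z18fl against Clover. The 3 that rose were 7SK, U6 (0.53 ± 0.15 SE, a spliceosomal RNA that RNA polymerase III also makes) and U14 (1.90 ± 0.27, a nucleolar RNA), beside 15.6% of all subfamilies. The 6 that fell were 7SLRNA (-0.79 ± 0.12), the spliceosomal U1 (-1.75 ± 0.12) and U4 (-0.71 ± 0.13) and the nucleolar U3 (-1.72 ± 0.19), U8 (-0.89 ± 0.24) and U17 (-1.27 ± 0.11), beside 15.8% of all. The median of the 16 was -0.25, against 0.01 for all subfamilies. With library sizes from aligned fragments 5 rose and 4 fell, beside 988 and 77 of all 1895 subfamilies, and those medians were 0.18 and 0.44. On uniquely mapping reads 14 were tested, 3 rose and 4 fell, beside 233 and 260 of all 1832 subfamilies. The list median was then 0.09, and U1 turned to 0.27 and was not called.

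With Z18trunc, 2 of 16 rose, U14 (1.53 ± 0.34 SE) and the spliceosomal U2 (0.43 ± 0.11), beside 10.1% of all, and 5 fell, 7SLRNA (-0.49 ± 0.13), U1, U3, U4 and U17, beside 8.04%. With library sizes from aligned fragments 4 rose and 3 fell, beside 810 and 20 of all 1890 subfamilies. The list median then moved from -0.23 to 0.21 as that of all subfamilies moved from 0.04 to 0.48. On uniquely mapping reads 15 were tested, 2 rose and 3 fell, beside 137 and 137 of all 1820 subfamilies, and the list median was 0.14. U1 was then called higher (0.57), U3 turned to 0.37 and was not called, and U2 (0.36) lost its call. With Z18truncZnFmut edgeR called 0 of 17 (0 at an unadjusted p under 0.05, 0 by DESeq2), beside 0.105% higher and 0% lower of all. Without its replicate 3 edgeR called 2, beside 165 of all 1837 subfamilies. For Z18trunc against Z18fl edgeR called 0 of 16 (5 at an unadjusted p under 0.05, 2 by DESeq2), beside 0.153% higher and 1.07% lower. Of all 1961 subfamilies, 321 had an unadjusted p under 0.05 and DESeq2 called 53. For Z18truncZnFmut against Z18trunc edgeR called 0 of 17 (2 at an unadjusted p under 0.05, 0 by DESeq2), beside 0% in either direction. Of all 1980 subfamilies, 77 had an unadjusted p under 0.05.

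**Figure D5:**
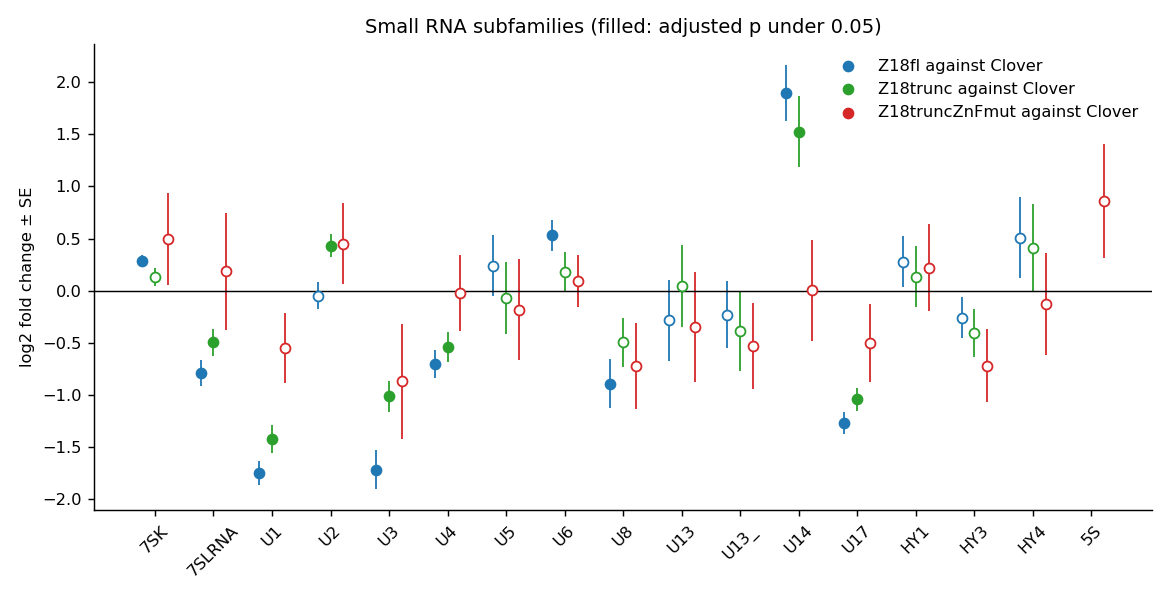
Log2 fold change ± SE against Clover for each tested small RNA subfamily and construct, sense counts summed by subfamily, with filled points at an edgeR adjusted p under 0.05. 7SK lies at 0.29, 0.13 and 0.50 for Z18fl, Z18trunc and Z18truncZnFmut, and U1 and U3 lie lowest for Z18fl.

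Ratios within a library need no scaling between libraries. The log2 ratio of 7SK to 7SLRNA sense counts was -1.31, -1.11 and -1.53 in the Clover libraries and -0.57, -0.04 and -0.03 in those of Z18fl. Z18trunc had -0.22, -0.97 and -0.81, and Z18truncZnFmut had -0.40, -1.38 and -0.87. Z18fl exceeded Clover by 1.10 ± 0.22 (SE) and Z18trunc by 0.65 ± 0.26, each without overlap (exact permutation p = 0.1, adjusted 0.2). Z18truncZnFmut overlapped Clover, with a difference of 0.44 ± 0.31 (exact permutation p = 0.3, adjusted 0.395). 7SLRNA itself reached 33559 CPM in Z18truncZnFmut replicate 2, against 7763 to 20706 in the other libraries. The ratio of 7SK to U6 gave differences from Clover of -0.26 ± 0.12, -0.06 ± 0.15 and 0.26 ± 0.40, all with overlapping groups, and rests on 44 to 217 U6 counts per library.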

How the data were processed

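The authors trimmed the reads (cutadapt 4.6 in the submitters' processing notes) and ran SQuIRE, version not given in the sources used here, on hg38, 1 file per library. Deposited unique reads are counts, and deposited totals are expected counts, since SQuIRE adds estimated shares of multimapping reads. The authors' FPKM and the deposited score, a percent of reads with any alignment, were not used in tests. Starts are printed counted from 1.

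Totals were rounded, and every element of every repeat class on each read strand was tested with edgeR 4.0.16 (R 4.3.3; TMM; filterByExpr with a minimum count of 10 and a minimum total of 15; Benjamini-Hochberg over all features, called under 0.05) on the 6 libraries of each of 5 comparisons. Subfamily sums were tested likewise. For 10 measures per library, two-sided exact permutation tests were run, 50 in 1 family. Depth was 16683132 to 25686948 aligned fragments per library, so an element at 0 may hold up to 3 counts, and this covers counting error only. Alternatives included DESeq2 1.42.0, unique reads, other scalings, no filter and left-out libraries. The tests were checked on simulated data.

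Named rows were the gene, the next 6 copies by mean total level, the next 4 by unique level, the 3 highest antisense rows and every called 7SK row. Genes came from GENCODE release 44, and sequences from the hg38 genome. The members and lists were chosen with earlier results of these data known. No 2 libraries of a group held the same values (r across elements 0.75 to 0.84).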

Additional observations from a re-analysis of the deposited data

How the results depend on the processing

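Same-numbered libraries did not deviate together across elements (r of -0.057 to 0.016). This check cannot show a pairing that touches few elements or the level of a whole library. With the replicate block, RN7SK for Z18trunc against Clover was 0.35 (edgeR adjusted p = 0.0570), its number of called 7SK rows 0, and RN7SKP255 for Z18trunc against Z18fl -0.52 (adjusted p = 0.130, 0 called rows); no other call changed. The main changes follow; the cause was not tested.

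Against Clover, RN7SK with Z18trunc was 0.20 on the strand of the element only, 0.27 with 12 libraries in 1 fit and 0.60 with no filter, no longer past the threshold, as with no filter for Z18fl (0.76) and Z18truncZnFmut (1.27). RN7SK for Z18truncZnFmut against Z18trunc was called by DESeq2 (0.77), in the 12-library fit (0.68), on unique reads (0.81) and unadjusted (0.75), and for Z18trunc against Z18fl unadjusted (-0.20) and without Z18trunc replicate 3 (-0.28). Called 7SK rows for Z18fl against Clover were 1 with no filter, RN7SKP175 (2.56), which the filter left out of the main fit, and 2 with 1 strand or unique reads. For Z18trunc against Clover they were 3 with aligned fragments, beside 4755 of all 18359 elements, 2 unadjusted, beside 7229, and 0 with no filter or 1 strand. For Z18truncZnFmut against Clover they were 10 unadjusted, beside 3753 of all 16106 elements, and 2 with unique reads. For Z18trunc against Z18fl they were 3 unadjusted, beside 5985 of all 27973 elements. They were 0 in the 12-library fit, with strands summed, aligned fragments, no filter or unique reads. For Z18truncZnFmut against Z18trunc they were 5 by DESeq2, beside 148 of all 24884 elements, and 7 unadjusted, beside 3261. They were 3 in the 12-library fit and 2 with unique reads. Where no count of all elements stands beside a number of called rows here, it cannot be read against a background.

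By subfamily, the 12-library fit lost 7SK sense (0.31) and antisense (-0.79) for Z18fl and antisense (-0.53) for Z18trunc. Aligned fragments gave 0.57 (called) and -0.0703 (not called) for Z18trunc. Unadjusted, Z18truncZnFmut antisense (-0.99) and Z18trunc against Z18fl (-0.20 sense, 0.25 antisense) passed. The small RNA list had 4 and 3 calls in the 12-library fit for Z18fl and Z18trunc, beside 270 and 171 of all 2010 subfamilies. For Z18trunc against Z18fl it had 2 by DESeq2 (beside 53 of 1961), 5 unadjusted (beside 321) and 1 on unique reads (beside 26 of 1895). For Z18truncZnFmut against Z18trunc it had 2 unadjusted, beside 77 of 1980. On unique reads U1 turned to 0.27 for Z18fl and 0.57 for Z18trunc against Clover, and U3 to 0.37 for Z18trunc.

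Of the values per library, medians turned 7SK antisense for Z18trunc against Clover to 0.0593 and intron rows for Z18truncZnFmut against Z18trunc to -0.00513. Scaling by all element counts turned intron rows for Z18trunc against Z18fl to -0.10 and for Z18truncZnFmut against Z18trunc to -0.28. On unique reads the share of the gene for Z18truncZnFmut became 0.0223 points against Clover and 0.00837 against Z18trunc.

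Leaving out 1 library at a time gave the ranges below. The number of all subfamilies called also changed with the library left out. No count of all elements or subfamilies stands beside the called rows and list calls, so these cannot be read against a background. Z18trunc against Clover: 7SK antisense rows -0.19 to 0.0754, 7SK sense subfamily 0.0505 to 0.19, called rows 0 to 1, RN7SK 0.20 to 0.50, 7SK to U6 -0.18 to 0.0141, list calls 4 to 8. Z18trunc against Z18fl: 7SK sense subfamily -0.24 to -0.15, other copies -0.12 to 0.00131, intron rows -0.10 to 0.15, called rows 0 to 1, RN7SK -0.28 to -0.12, list calls 0 to 3. Z18truncZnFmut against Clover: subfamily antisense -1.27 to -0.60 and sense 0.16 to 0.85, share of the gene -0.392 to 0.305 points, 7SK to U6 -0.0877 to 0.57, list calls 0 to 2. Z18truncZnFmut against Z18trunc: intron rows -0.18 to 0.34, called rows 0 to 4, RN7SK 0.62 to 0.97, 7SK to 7SLRNA -0.46 to 0.0342, 7SK to U6 -0.0273 to 0.63, list calls 0 to 2.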
